A study of Mus musculus with 9 samples.

Results

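The genes described here are 10 mouse genes that copy, write or erase DNA methylation or rebuild chromatin behind the replication fork. They are the maintenance genes Dnmt1, Uhrf1 and Hells, the de novo methyltransferases Dnmt3a and Dnmt3b, the dioxygenases Tet1, Tet2 and Tet3, the polycomb methyltransferase Ezh2 and the histone chaperone Asf1b. They were chosen by name, as the 10 rows whose Ensembl ID maps to these symbols, out of 54307 rows in the table of expression values. All 10 were found, and each matched 1 row.

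The series sequenced messenger RNA of C2C12 cells, an established line of mouse myoblasts that can be grown as dividing cells or induced to fuse into myotubes. The HL group received 25 mmol/L glucose with 200 nmol/L liraglutide, an acylated analogue of the gut hormone GLP-1. The H group received 25 mmol/L glucose alone, and the NC group was the control, for which the labels give neither a glucose concentration nor an osmotic agent. Each group had 3 libraries, all groups were treated for 48 h, and nothing in the labels says that the 3 libraries came from separate cultures, so the p-values measure the spread between libraries, which may be technical. H was set against NC for the effect of high glucose, HL against H for that of liraglutide under high glucose, and HL against NC for what remained different from control.

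Methyl groups on CpG cytosines are lost from the new strand at each round of DNA replication unless they are copied. Uhrf1 binds the half-methylated CpG behind the fork and brings in Dnmt1, which methylates the new strand, and Hells, a remodeler of the SNF2 family, gives the methyltransferases access to DNA packed in nucleosomes. Dnmt3a and Dnmt3b methylate sites that carried no mark, Tet enzymes oxidize methylcytosine and thereby start its removal, Asf1b hands newly made histones to the assembly factor CAF-1, and Ezh2 is the catalytic subunit of polycomb repressive complex 2.

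Promoter sequences are printed first, as a description, for genes that the results turn on. Whether the motifs in them had a part in the levels of these genes was not tested. RefSeq windows from 250 bases before to 50 bases after each annotated start (build GRCm38.p6) matched all 10 genes, with 15 windows in all. Both strands were searched for 4 motifs, namely E2F sites (TTTCCCGC, TTTGGCGC, TTTCGCGC or TTTGCCGC), the cell cycle homology region or CHR (TTTGAA or TTCGAA), the CCAAT box (CCAAT) and the GC box (GGGCGG). The stretches below run 5′ to 3′ along the gene, and capitals mark each motif on either strand. They come from Uhrf1 (the second start, chr17:56304113-56304212, plus strand), Dnmt1 (the third start, chr9:20952814-20952873, minus strand), Hells (chr19:38930880-38930959, plus strand), Ezh2 (chr6:47595017-47595130, minus strand), Asf1b (chr8:83955564-83955693, plus strand), Tet2 (chr3:133544391-133544470, minus strand) and Dnmt3b (chr2:153649309-153649408, plus strand).
Uhrf1: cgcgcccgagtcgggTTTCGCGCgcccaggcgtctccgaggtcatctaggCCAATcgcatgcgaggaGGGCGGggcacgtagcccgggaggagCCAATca
Dnmt1: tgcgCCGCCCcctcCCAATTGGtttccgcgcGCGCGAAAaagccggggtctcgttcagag
Hells: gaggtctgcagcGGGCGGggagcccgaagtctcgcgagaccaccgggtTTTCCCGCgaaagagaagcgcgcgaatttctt
Ezh2: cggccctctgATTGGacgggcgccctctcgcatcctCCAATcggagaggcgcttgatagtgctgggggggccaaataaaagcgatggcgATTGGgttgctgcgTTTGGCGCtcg
Asf1b: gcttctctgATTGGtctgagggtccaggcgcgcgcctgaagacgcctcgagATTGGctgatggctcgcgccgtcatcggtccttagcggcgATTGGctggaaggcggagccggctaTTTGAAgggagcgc
Tet2: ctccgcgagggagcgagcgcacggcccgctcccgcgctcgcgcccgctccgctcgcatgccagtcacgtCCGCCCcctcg
Dnmt3b: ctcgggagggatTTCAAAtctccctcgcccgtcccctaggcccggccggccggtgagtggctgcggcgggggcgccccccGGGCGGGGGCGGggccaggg

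E2F letters stood in 4 of the 15 windows, those of Uhrf1, Dnmt1, Hells and Ezh2, against 2.26% of all 32851 RefSeq windows of the same length. With the annotated start counted as position 1 and the base before it as -1, they began at position -185 for the second start of Uhrf1, at -62 for Hells, at 4 for Ezh2, and at both -219 and 34 for the third start of Dnmt1. The windows of Asf1b, Dnmt3a, Dnmt3b, Tet1, Tet2 and Tet3 did not hold these letters. Neither did the first start of Uhrf1 or the first and second starts of Dnmt1. For Uhrf1 and Dnmt1 the printed start was therefore the start with these letters. The CHR letters stood in 3 windows (Asf1b, Dnmt3b and the first start of Dnmt1), against 19.2% of all windows. CCAAT boxes stood in 7 windows of 5 genes, against 37.4% of all windows. The first start of Dnmt1 had 5 of them, the window of Asf1b 4, and the windows of Ezh2, of the first start of Uhrf1 and of the third start of Dnmt1 3 each. The CCAATTGG of Dnmt1 counts once on each strand, with overlapping matches. GC boxes stood in 12 windows of 9 genes, all but Ezh2, against 35.7% of all windows. CpG dinucleotides, the sites these enzymes act on, numbered 57 in the Tet2 window, 46 and 47 at the first and second starts of Dnmt3a, and 2 at the first start of Dnmt1, against a median of 7 over all windows. A match describes letters in a window, and which start the C2C12 cells used was not measured here.

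**Figure D1:**
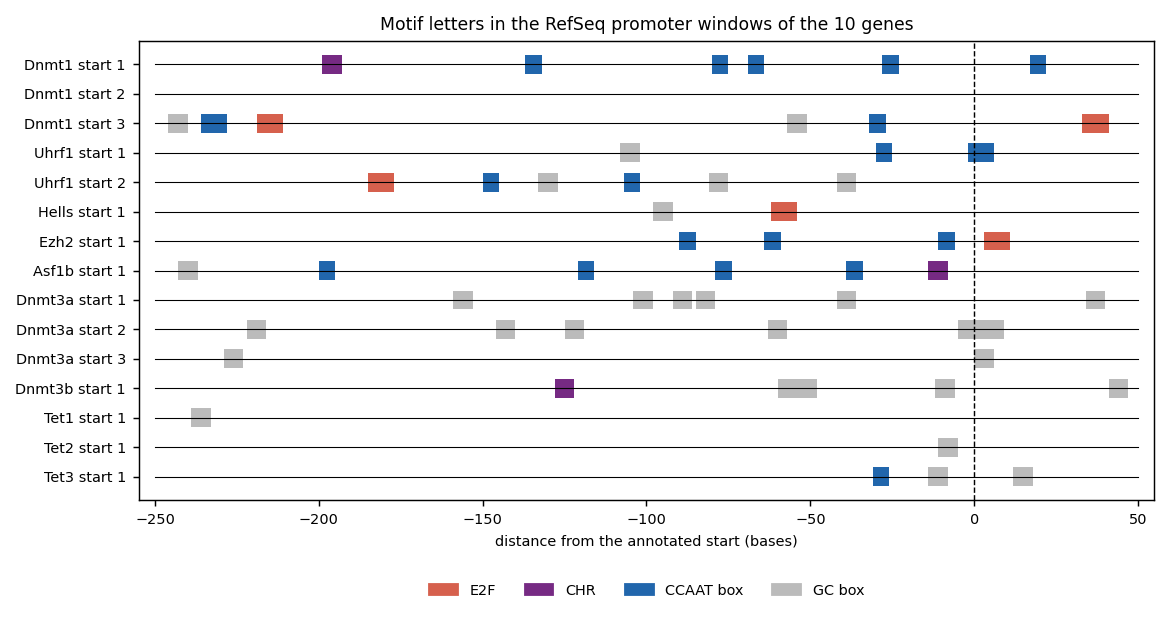
Positions of the 4 motifs in the 15 RefSeq promoter windows of the 10 genes. The x axis is the distance from the annotated start in bases, each row is 1 annotated start, and boxes mark E2F (orange), CHR (purple), CCAAT (blue) and GC box (grey) letters. E2F letters are seen in 1 row each of Uhrf1, Dnmt1, Hells and Ezh2 only, and the Asf1b row holds 4 CCAAT boxes and 1 CHR.

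Levels are given in FPKM, fragments scaled to the length of the transcript and to all mapped fragments of the library, so that genes can be compared per length. Fold changes are on the scale of log2(FPKM + 0.1) and come from limma, fitted to the 13674 genes that reached 1 FPKM in 3 or more libraries. The added 0.1 makes fold changes of low genes smaller. A gene is called where the adjusted p is under 0.05 and the log2 fold change is over 1 in either direction. All 10 genes passed the filter, but Tet1 and Dnmt3b reached 1 FPKM in only 4 libraries each. For Tet1 these were the 3 HL libraries and 1 H library, so its passing depended on the group in which it was high, and its tested differences are read from a fit of all 32012 genes above 0 in any library, with no such filter. In bulk RNA, fewer cells of a type and less of a transcript per cell cannot be told apart, and the same holds for a smaller share of cells in S phase.

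The maintenance genes were lowest in H and intermediate in HL. Uhrf1 (ENSMUSG00000001228.15) was measured at 37.3, 37.6 and 35.0 FPKM in HL, at 15.6, 12.6 and 15.1 FPKM in H and at 67.8, 70.2 and 65.5 FPKM in NC. No library of one group reached the range of another group. Against NC, the Uhrf1 level fell by 2.23 on the log2 scale in H (SE 0.08, adjusted p = 1.4e-07 by limma), so that the mean in H was 21.3% of the NC mean. Against H, Uhrf1 rose in HL by 1.34 on the log2 scale (SE 0.08, adjusted p = 5.25e-06 by limma), and the HL mean was 54.0% of the NC mean. It was the only one of the 10 genes called between HL and H, although Hells and Tet1 were called too when H replicate 3 was left out.

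Dnmt1 (ENSMUSG00000004099.17), the maintenance methyltransferase itself, was measured at 33.9, 33.5 and 33.4 FPKM in HL, at 20.3, 18.7 and 21.2 FPKM in H and at 46.4, 43.8 and 45.6 FPKM in NC. The 3 groups did not overlap, and the HL libraries varied least, with an SD of 0.250 FPKM, against 1.28 FPKM in H and 1.33 FPKM in NC. The Dnmt1 level in H fell by 1.17 on the log2 scale relative to NC (SE 0.06, adjusted p = 5.22e-07 by limma), the smallest of the called falls among the 10 genes. After the values were rescaled to TPM the same fall was -0.98 on the log2 scale and no longer passed the fold threshold, although its adjusted p did. HL was higher than H by 0.74 (SE 0.06, adjusted p = 1.98e-05) and lower than NC by a log2 fold change of -0.43 (SE 0.06, adjusted p = 0.000404), both by limma and both short of the fold threshold.

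Hells (ENSMUSG00000025001.12), the remodeler, had 16.6, 17.6 and 15.1 FPKM in HL, 7.10, 9.24 and 11.2 FPKM in H and 31.1, 26.5 and 29.2 FPKM in NC. Its H libraries were the most widely spread of the maintenance genes, from 7.10 to 11.2 FPKM, but remained below every HL library. Hells fell in H relative to NC by 1.67 on the log2 scale (SE 0.15, adjusted p = 1.25e-05 by limma). HL exceeded H by 0.86 on the log2 scale (SE 0.15, adjusted p = 0.00136 by limma), which missed the fold threshold, and the difference was 1.01 without H replicate 3, which passed it. The HL mean was 56.8% of the NC mean. The study itself picked Hells and Asf1b, among other genes, from these libraries as changed in H, so their direction there is not independent evidence. The same holds in H for Rrm2, Cdc6, Pola1, Ccne2 and Csf1r, named below. In HL against H it holds for Lmnb1 and Csf1r.

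The chromatin genes Asf1b and Ezh2 were likewise lowest in H. Asf1b (ENSMUSG00000005470.9) had 27.4, 23.9 and 21.9 FPKM in HL, 13.0, 15.3 and 14.3 FPKM in H and 73.4, 69.2 and 65.9 FPKM in NC. It had the highest NC mean of the 10 genes and the largest change in H, where it fell by 2.29 on the log2 scale relative to NC (SE 0.09, adjusted p = 1.95e-07 by limma). HL was above H by 0.78 (SE 0.09, adjusted p = 0.000178 by limma), under the fold threshold. It was the only one of the 10 genes called lower in HL than in NC, at -1.51 on the log2 scale (SE 0.09, adjusted p = 7.77e-06 by limma), and the HL mean was 35.1% of the NC mean.

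Ezh2 (ENSMUSG00000029687.17) had 29.2, 30.1 and 32.8 FPKM in HL, 20.7, 17.9 and 19.0 FPKM in H and 47.8, 54.2 and 55.6 FPKM in NC. No libraries of different groups overlapped. Its level fell in H relative to NC by 1.45 on the log2 scale (SE 0.08, adjusted p = 9.54e-07 by limma). HL was higher than H by 0.68 (SE 0.08, adjusted p = 0.000183) and lower than NC, at -0.77 (SE 0.08, adjusted p = 9.54e-05), again by limma and without passing the fold threshold.

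**Figure D2:**
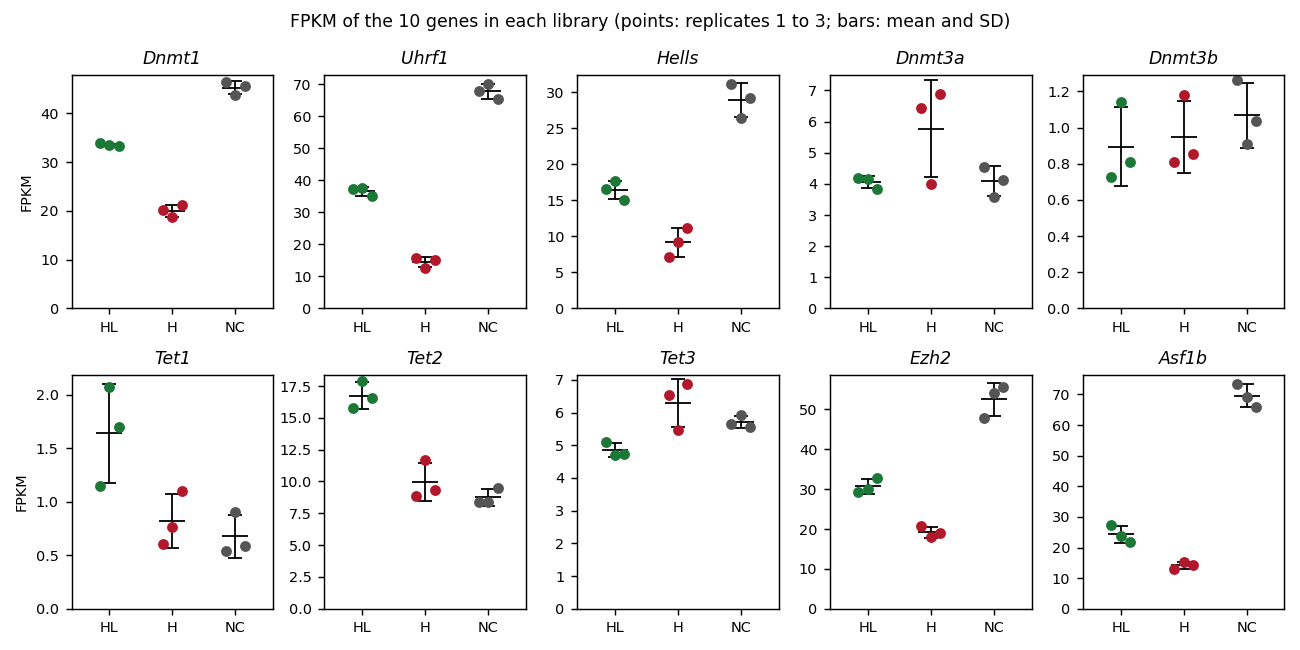
FPKM of the 10 genes (y axes, each from 0) in the HL, H and NC libraries (x axes), with points for the 3 libraries of a group and bars for the mean and SD. Uhrf1, Dnmt1, Hells, Ezh2 and Asf1b have 3 separate clusters with NC highest and H lowest, Tet2 is highest in HL at 15.8 to 17.9 FPKM, and the groups of Dnmt3a and Dnmt3b overlap.

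Neither de novo methyltransferase was called in any comparison. Dnmt3a (ENSMUSG00000020661.16) had 4.19, 4.15 and 3.83 FPKM in HL, 6.44, 3.99 and 6.88 FPKM in H and 4.54, 3.58 and 4.14 FPKM in NC. Of the H libraries, replicates 1 and 3 lay above all others, whereas replicate 2 lay within the range of NC. The Dnmt3a log2 fold change was 0.46 in H against NC (95% interval 0.02 to 0.89, adjusted p = 0.0653 by limma) and -0.46 in HL against H (95% interval -0.89 to -0.03, adjusted p = 0.0734 by limma). Without H replicate 2 these values were 0.70 (adjusted p = 0.00104) and -0.70 (adjusted p = 0.00148) by limma. With all libraries kept, H against NC gave 0.65 (adjusted p = 0.0167 by limma) after rescaling to TPM. With a replicate block in the fit it gave 0.46 (adjusted p = 0.0483 by limma). The side of the p threshold on which Dnmt3a lay thus depended on 1 library and, in H against NC, on the scaling and the fit. HL and NC differed by -0.01, with a 95% interval from -0.44 to 0.43.

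Dnmt3b (ENSMUSG00000027478.16) was close to the filter level of 1 FPKM. It had 0.728, 1.14 and 0.812 FPKM in HL, 0.810, 1.18 and 0.854 FPKM in H and 1.26, 0.909 and 1.04 FPKM in NC. All 3 groups overlapped. Its log2 fold change was -0.17 in H against NC (95% interval -0.73 to 0.40) and -0.08 in HL against H (95% interval -0.64 to 0.48), intervals that leave room for changes of either sign.

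Among the Tet genes, Tet1 and Tet2 were highest in HL and Tet3 was lowest there. Tet2 (ENSMUSG00000040943.13), the most abundant of them, had 15.8, 17.9 and 16.6 FPKM in HL, 8.89, 11.7 and 9.30 FPKM in H and 8.41, 8.35 and 9.49 FPKM in NC. Every HL library lay above every H and NC library, while H and NC overlapped. HL was higher than H by 0.75 on the log2 scale (SE 0.11, adjusted p = 0.000549) and higher than NC by 0.93 (SE 0.11, adjusted p = 0.000175), by limma. Both were under the fold threshold. The difference from H stayed under it in every alternative, at 0.659 to 0.873, and that from NC reached 1.03 after rescaling to TPM. H against NC gave 0.18 (95% interval -0.07 to 0.43), but 0.37 (adjusted p = 0.0159 by limma) after rescaling to TPM.

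Tet1 (ENSMUSG00000047146.18) was low throughout, with 1.15, 2.07 and 1.70 FPKM in HL, 0.602, 0.760 and 1.10 FPKM in H and 0.539, 0.902 and 0.586 FPKM in NC. The HL libraries lay above all others, but the lowest HL library exceeded the highest H library only by 1.15 against 1.10 FPKM. In the fit with no filter, Tet1 was higher in HL than in NC by 1.16 on the log2 scale (adjusted p = 0.0249 by limma), past both thresholds, and HL was above H by 0.92 (adjusted p = 0.0609 by limma), past neither. With the filter, limma gave these differences an adjusted p of 0.0126 and 0.0346, values that the filter favours. The filtered HL against NC call was lost without HL replicate 2, where the difference was 0.98 (adjusted p = 0.0519 by limma), and with a pseudocount of 1, where it was 0.65. The difference of HL from H passed the fold threshold without H replicate 3, at 1.13, and without HL replicate 1, at 1.14.

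Tet3 (ENSMUSG00000034832.16) had the opposite sign in HL, with 5.09, 4.71 and 4.73 FPKM in HL, 6.54, 5.46 and 6.88 FPKM in H and 5.66, 5.93 and 5.55 FPKM in NC. All HL libraries lay below all H and all NC libraries. HL was lower than H, at -0.37 on the log2 scale (SE 0.10, adjusted p = 0.0158 by limma), and the difference from NC was -0.23 (95% interval -0.46 to 0.00, adjusted p = 0.0857 by limma). For Tet3, H against NC gave 0.13 (95% interval -0.1 to 0.36). After rescaling to TPM this difference was 0.32 (adjusted p = 0.0314), and without H replicate 2 it was 0.23 (adjusted p = 0.0377), both by limma.

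Counted over the 10 genes, H against NC had 0 called higher and 5 called lower, where 10.3% of all tested genes were called higher, 5.75% lower and 16.0% in either direction. The median log2 fold change of the 10 genes was -0.67, against -0.04 over all tested genes. The same 5 genes, Dnmt1, Uhrf1, Hells, Ezh2 and Asf1b, had H libraries all below the NC libraries, as did 35.7% of all tested genes, and none of the 10 had H libraries all above (29.7% of all tested genes). In HL against H, 1 gene was called higher and 0 lower (3.55% of tested genes were called higher, 5.83% lower and 9.38% in either direction). At an adjusted p under 0.05 alone, 7 genes were higher and 1 lower in HL, against 26.7% and 21.7% of all tested genes. Tet1 was one of the 7 and did not pass in the fit with no filter. The median of the 10 was 0.75 against 0.04 over all tested genes. The HL libraries lay all above the H libraries for 7 genes and all below for 1, against 30.4% and 24.9% of all tested genes. In HL against NC, 1 gene, Tet1, was called higher and 1, Asf1b, lower (6.30% and 2.41% of tested genes, 8.72% in either direction), and at an adjusted p under 0.05 alone 2 were higher and 5 lower (21.6% and 27.2%). The HL libraries lay all above the NC libraries for 2 genes and all below for 6, against 29.5% and 36.3% of all tested genes, and the median of the 10 was -0.34 against -0.04. The comparisons share libraries, so they are not separate evidence of one another.

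**Figure D3:**
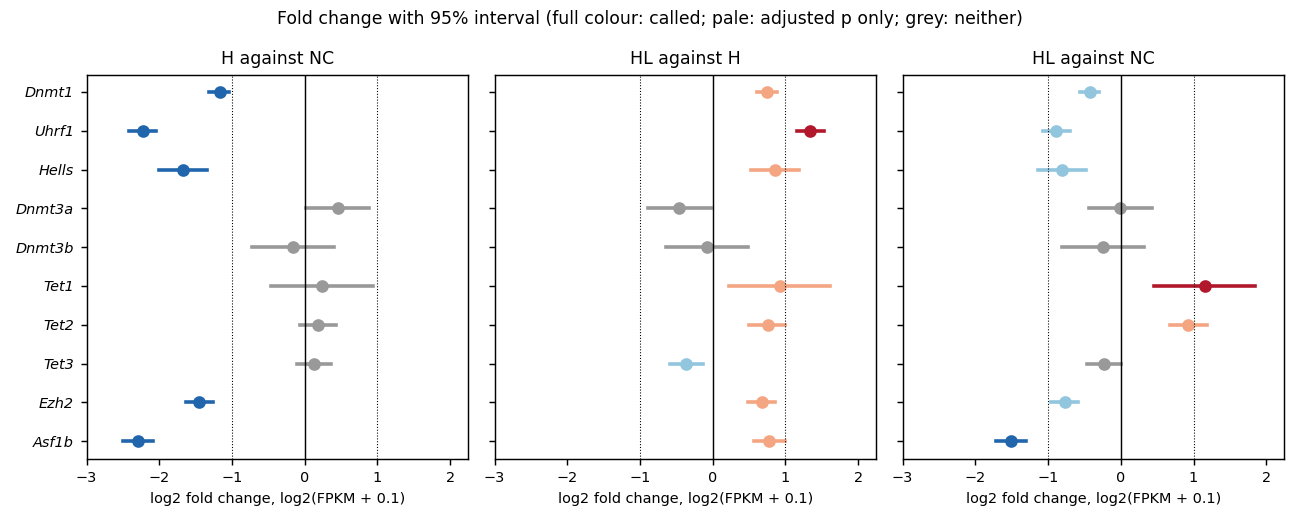
Log2 fold change of each gene on the log2(FPKM + 0.1) scale (x axes) with its 95% interval from limma, for H against NC, HL against H and HL against NC. Dotted lines mark a log2 fold change of 1 in either direction. Full colour marks called genes (blue lower, red higher), pale colour an adjusted p under 0.05 only, and grey neither. In H against NC 5 genes are in full blue, in HL against H only Uhrf1 is in full red, and in HL against NC Asf1b is in full blue and Tet1, which passed the filter through its HL libraries, in full red.

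The order of the levels differed between groups. In NC the means ran from Asf1b (69.5 FPKM) and Uhrf1 (67.8 FPKM), whose libraries overlapped, through Ezh2 (52.5), Dnmt1 (45.3) and Hells (28.9) to Tet2 (8.75), Tet3 (5.71), Dnmt3a (4.09), Dnmt3b (1.07) and Tet1 (0.676). In HL Uhrf1 (36.6 FPKM), Dnmt1 (33.6) and Ezh2 (30.7) stood before Asf1b (24.4), the libraries of Tet2 (16.8) and Hells (16.4) overlapped, and Tet1 (1.64) stood above Dnmt3b (0.894). In H Dnmt1 (20.1 FPKM) and Ezh2 (19.2) came first with overlapping libraries, followed by Uhrf1 (14.4) and Asf1b (14.2), also overlapping, and the libraries of Tet2 and Hells, of Tet3 and Dnmt3a, and of Dnmt3b and Tet1 overlapped as well.

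Ratios of 2 genes within a library do not depend on how the library was scaled, so 9 of them were compared. With 3 libraries against 3 the exact two-sided permutation test cannot give a p below 0.1, and no ratio can pass the 0.05 threshold. Among the 27 tests, ratios whose groups did not overlap all had an exact p = 0.1 and an adjusted p = 0.117. Maintenance against de novo methyltransferase, Dnmt1/Dnmt3a, was 8.08, 8.07 and 8.72 in HL, 3.15, 4.68 and 3.08 in H and 10.2, 12.2 and 11.03 in NC. The difference in mean log2 ratio was -1.64 for H against NC and 1.22 for HL against H, without overlap of the libraries. Dnmt1/Dnmt3b was 29.3 to 46.5 in HL, 15.9 to 25.0 in H and 36.7 to 48.2 in NC, with HL and NC overlapping.

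Within the maintenance machinery, Uhrf1 was lower relative to Dnmt1 in H. Uhrf1/Dnmt1 was 1.10, 1.12 and 1.05 in HL, 0.7701, 0.674 and 0.713 in H and 1.46, 1.60 and 1.44 in NC, so that Uhrf1 was the more abundant transcript in every HL and NC library and the less abundant in every H library. Uhrf2, its paralog, which does not replace Uhrf1 in maintenance, had a log2 fold change of -0.46 in H against NC (adjusted p = 0.000112 by limma), and Uhrf1/Uhrf2 was 0.808 to 0.905 in HL, 0.302 to 0.397 in H and 1.22 to 1.24 in NC. Hells/Dnmt1 was 0.452 to 0.527 in HL, 0.350 to 0.526 in H and 0.605 to 0.671 in NC, and HL and H overlapped.

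The ratios of Ezh2 and Asf1b to their paralogs were also lowest in H. Ezh1, the alternative catalytic subunit of polycomb repressive complex 2 that predominates in non-dividing cells, was higher in H than in NC by 0.51 on the log2 scale (adjusted p = 0.00023 by limma), and Ezh2/Ezh1 was 1.93, 2.08 and 2.22 in HL, 1.29, 1.21 and 1.09 in H and 4.18, 4.85 and 4.96 in NC. Asf1a, the paralog of Asf1b, had a log2 fold change of -0.45 in H against NC (adjusted p = 0.00359 by limma), and Asf1b/Asf1a was 1.02 to 1.09 in HL, 0.529 to 0.818 in H and 2.30 to 2.54 in NC. In both ratios no libraries of different groups overlapped. The difference in mean log2 ratio was -1.96 for Ezh2/Ezh1 and -1.85 for Asf1b/Asf1a in H against NC.

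The ratios of Tet2 and Tet1 to Tet3 were highest in HL. Tet2/Tet3 was 3.10, 3.80 and 3.51 in HL, 1.36, 2.14 and 1.35 in H and 1.49, 1.41 and 1.71 in NC. Tet1/Tet3 was 0.225 to 0.440 in HL, 0.0920 to 0.160 in H and 0.0953 to 0.152 in NC. HL lay above both other groups in each ratio, H and NC overlapped, and the differences of HL against H were 1.13 for Tet2/Tet3 and 1.37 for Tet1/Tet3 on the log2 scale.

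**Figure D4:**
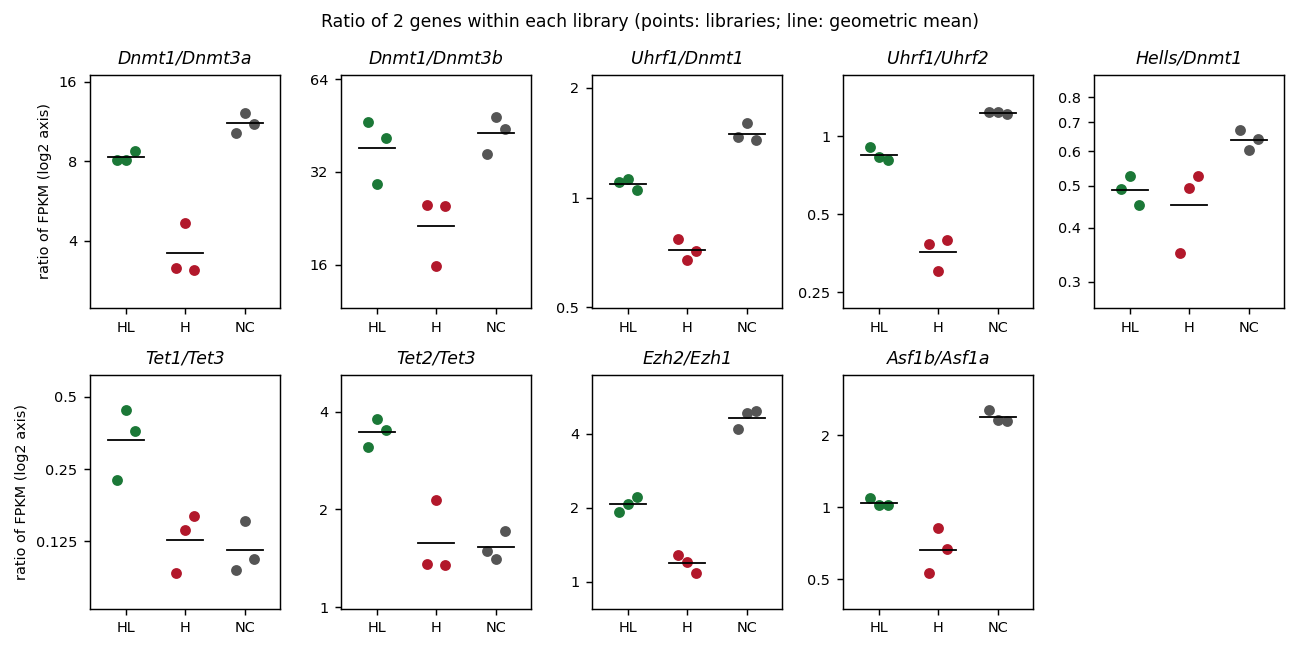
The 9 within-library ratios of FPKM (y axes, log2 scale) in the HL, H and NC libraries (x axes), with a point for each library and a line for the geometric mean of the group. Dnmt1/Dnmt3a, Uhrf1/Dnmt1, Uhrf1/Uhrf2, Ezh2/Ezh1 and Asf1b/Asf1a show H lowest and NC highest with no overlap, and Tet2/Tet3 and Tet1/Tet3 show HL alone above the others.

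The genes whose profile over the 9 libraries was most like that of a member were named by the root mean square difference of the centred log2 values, as a description. For Uhrf1 these were Lmnb1 (0.099), Pole (0.115) and Dscc1 (0.129), where the median over all tested genes was 0.94. For Asf1b they were Ccne2 (0.132), Cdca7 (0.136) and Pola1 (0.14), with a median of 0.97. Ezh2 was closest to Lsm3 (0.062), Usp1 (0.068) and Mtfr2 (0.079), Dnmt1 to Tubb5 (0.057), Hmgn1 and Nutf2-ps1 (0.059 each), and Hells to Zgrf1 (0.088), Cdca2 (0.102) and Nmral1 (0.113). Tet2 was closest to Gm14124 (0.103), Mtss1 (0.106) and Nceh1 (0.114). Tet3 was closest to Nln (0.046), Mta2 (0.051) and Lap3 (0.052), Dnmt3a to Pcsk4 (0.053), Lzic (0.109) and Pigv (0.11), Dnmt3b to 1110046J04Rik (0.13), Wdcp (0.137) and Foxp1 (0.147), and Tet1 to D130040H23Rik (0.22), Tnni2 (0.237) and Sdsl (0.242). The genes nearest Tet1 were farther from it than those nearest Dnmt1 were from Dnmt1.

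Other genes of the same pathways were counted in 11 lists of 154 genes, of which 136 were tested. H against NC called 1 of them higher and 37 lower, where 10.3% and 5.75% of all tested genes were called higher and lower. HL against H called 5 higher and 1 lower (3.55% and 5.83% of all tested genes), and HL against NC 2 higher and 19 lower (6.30% and 2.41%). The list of S phase genes held 18 of the 37 lower calls. All 22 of its genes had H libraries below the NC libraries, as did 35.7% of all tested genes, and their median log2 fold change was -1.75, against -0.04 over all tested genes. In HL against H 4 of the 22 were called higher, against 3.55% of all tested genes. Rrm2, the small subunit of ribonucleotide reductase, had log2 fold changes of -2.51 in H against NC and 1.23 in HL against H, and Pole, the leading strand polymerase, of -2.28 and 1.20, all called by limma. Cdc6 (-2.88 and 1.26) was also called in both. Mcm5 (-2.36 and 0.71) and Gins1 (-2.235 and 0.999) were called in H against NC only. At an adjusted p under 0.05 alone, 18 of the 22 were higher and 1 lower in HL than in H, against 26.7% and 21.7% of all tested genes. The summed level of the list was 678 to 686 FPKM in HL, 406 to 455 FPKM in H and 1453 to 1468 FPKM in NC, which moved in the same order as Uhrf1, Dnmt1, Hells, Ezh2 and Asf1b. What part the share of cells in S phase had in the values of these 5 genes was not tested.

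Of the 12 partners of the methyltransferases, 10 were tested and 4 were called lower in H than in NC, against 5.75% of all tested genes. One of the 4 was Dnmt3l, the catalytically inactive cofactor of the de novo enzymes, which passed the filter only through NC, where it was high, so that its call was favoured by the filter. The other 3 were Cdca7, the zinc finger partner of Hells (-2.10, adjusted p = 2.36e-07), Lig1, the ligase that joins lagging strand fragments and binds Uhrf1 (-1.92, adjusted p = 7.9e-07), and Cdca7l, a paralog of Cdca7 (-1.66, adjusted p = 1.61e-06), all as log2 fold changes by limma. Dnmt3l was low, at 0.0545, 0.809 and 0.0680 FPKM in HL, 0.156, 0.332 and 0.157 FPKM in H and 3.40, 1.62 and 2.20 FPKM in NC. Its HL replicate 2 stood apart from the other 2 HL libraries, and only the NC libraries exceeded 1 FPKM. Cdca7 had 6.86, 7.33 and 6.18 FPKM in HL, 4.43, 5.07 and 4.28 FPKM in H and 19.6, 20.3 and 20.1 FPKM in NC. Lig1 had 20.97, 19.8 and 20.6 FPKM in HL, 9.52, 9.35 and 12.5 FPKM in H and 37.7, 39.6 and 41.2 FPKM in NC. In HL against H none of the 10 was called, with 0.98 for Lig1 (adjusted p = 9.74e-05) and 0.55 for Cdca7 (adjusted p = 0.00105) by limma. Pcna, the sliding clamp that holds Dnmt1 at the fork, had another pattern, with 128, 119 and 133 FPKM in HL, 276, 190 and 233 FPKM in H and 232, 247 and 238 FPKM in NC. H and NC overlapped for Pcna, and HL was lower than H by a log2 fold change of -0.86 (adjusted p = 0.000306 by limma).

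Among the 22 histone chaperones 6 were called lower in H than in NC, against 5.75% of all tested genes. Chaf1a, the large subunit of the assembly factor CAF-1 to which Asf1b hands its histones, had 17.4, 19.6 and 20.1 FPKM in HL, 10.3, 7.20 and 9.83 FPKM in H and 34.8, 34.1 and 35.9 FPKM in NC. Its log2 fold change was -1.94 in H against NC (adjusted p = 1.83e-06) and 1.07 in HL against H (adjusted p = 0.000149), both by limma and both called. Nasp (-1.67), Chaf1b (-1.42), Hat1 (-1.37) and Hjurp (-1.35), which store, assemble, acetylate or place histones at centromeres, were called lower in H than in NC. Their HL libraries all lay above their H libraries, with log2 fold changes of 0.83 for Nasp, 0.61 for Chaf1b, 0.33 for Hat1 and 0.80 for Hjurp, which passed the adjusted p threshold by limma but not the fold threshold.

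Of the 11 tested genes of polycomb repressive complex 2 besides Ezh2, 1 was called higher and 1 lower in H than in NC, against 10.3% and 5.75% of all tested genes. Phf19, an accessory subunit that binds methylated histone, fell in H by 1.67 on the log2 scale (adjusted p = 0.000208), whereas Jarid2, an accessory subunit that recruits the complex, rose by 1.21 (adjusted p = 1.06e-05), by limma. Epop, another accessory subunit, had 1.37, 1.62 and 1.91 FPKM in HL, 6.87, 3.98 and 5.01 FPKM in H and 2.88, 2.69 and 2.53 FPKM in NC, and was the 1 related gene called lower in HL than in H (-1.61, adjusted p = 0.000209 by limma). The core subunits Suz12 and Eed gave log2 fold changes in H against NC of -0.74 (adjusted p = 2.92e-06) and -0.06 (adjusted p = 0.496) by limma. Rbbp7 and Rbbp4, also of the core, gave -0.75 (adjusted p = 2.27e-06) and -0.09 (adjusted p = 0.365) by limma. None of these was called. Of 16 heterochromatin factors 4 were called lower in H than in NC, against 5.75% of all tested genes. They were Suv39h2 (-1.48) and Suv39h1 (-1.02), which methylate histone in heterochromatin, Cbx3 (-1.27), which binds that mark, and Lbr (-1.19), which tethers it to the nuclear envelope.

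None of the 10 genes listed as methyl-CpG readers was called in any comparison. At an adjusted p under 0.05 alone, limma gave 3 higher and 3 lower in H against NC. Of all tested genes, 27.1% and 33.0% were higher and lower. Mbd3, a subunit of the NuRD complex, was the most abundant gene of the list. It had 60.9, 58.0 and 60.6 FPKM in HL, 85.8, 63.8 and 71.9 FPKM in H and 98.7, 94.4 and 96.2 FPKM in NC. Of the 14 genes of methyl donor and cofactor supply, 4 were called lower in H than in NC, against 5.75% of all tested genes. Idh2 (-1.13), which makes the 2-oxoglutarate that Tet enzymes use, was one of them, with Shmt2 (-1.04) and Mthfd1 (-1.03) of one-carbon metabolism. The other was Ahcy (-1.78), which clears the by-product of methylation. Idh1, of the same list, did not fall with Idh2. Its H libraries all lay above its NC libraries, at a log2 fold change of 0.24 (adjusted p = 0.0597 by limma). In HL, Idh1 was higher than in H by 0.35 (adjusted p = 0.0171) and than in NC by 0.59 (adjusted p = 0.00114), by limma. Ahcy was measured at only 3.31, 1.75 and 2.44 FPKM in HL, 0.916, 1.66 and 1.89 FPKM in H and 7.67, 4.94 and 3.58 FPKM in NC, and near-identical copies may share its reads, so its level is uncertain. The polycomb repressive complex 1 list (19 tested) and the H3K27 demethylases, which remove the mark that Ezh2 writes (2 tested), had 0 calls in the 3 comparisons. At an adjusted p under 0.05 alone, limma gave 4 higher and 8 lower in the first list and 0 in the second for H against NC.

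**Figure D5:**
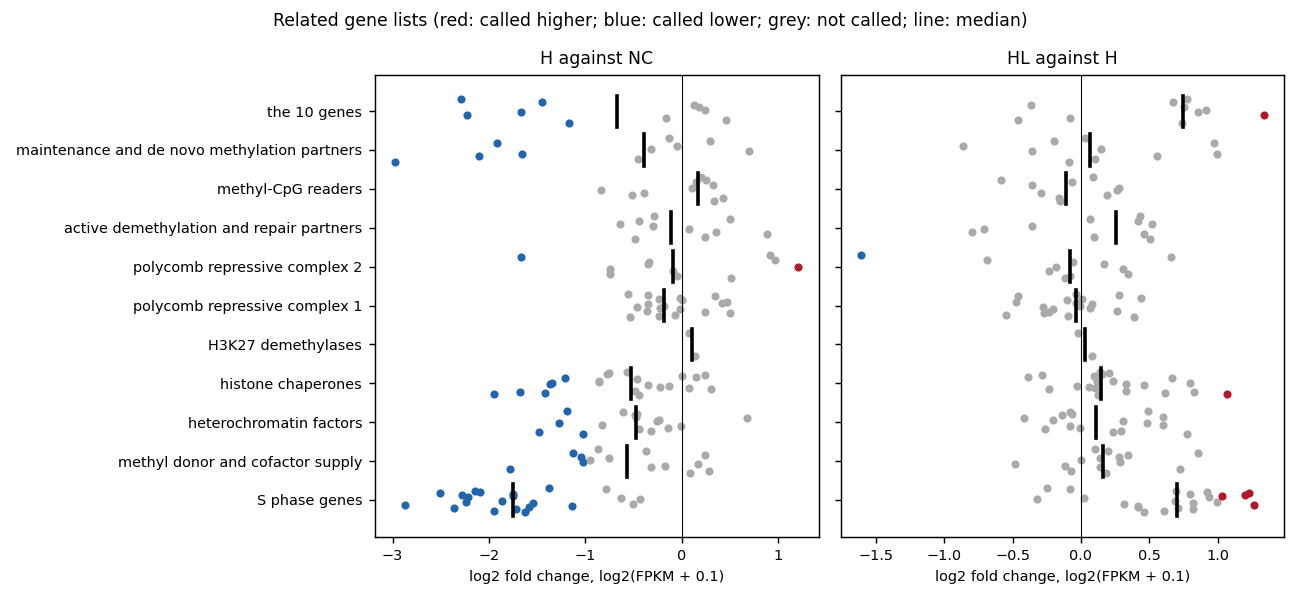
Log2 fold changes on the log2(FPKM + 0.1) scale (x axes) of the 10 genes and of the tested genes of 10 related lists (rows), for H against NC and HL against H. Points are genes (red called higher, blue called lower, grey not called) and black lines are list medians. The S phase row lies farthest to the left in H against NC, with a median of -1.75, and has 4 red points in HL against H.

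Facts of the whole series bear on these values as follows. The 9 libraries were estimated to hold 15750000 to 20690000 mapped fragments, from the steps between low values, at which 1 fragment on a transcript of 1 kb is worth 0.0483 to 0.0635 FPKM. Summed FPKM were 698627 to 731929 in HL, 649733 to 683362 in H and 757000 to 765681 in NC, and mitochondrially encoded genes took 9.19 to 11.5% of the sum in HL, 7.24 to 9.48% in H and 6.48 to 7.28% in NC. The H libraries were the most variable, with a median SD over genes of 0.171 on the log2 scale, against 0.0865 in HL and 0.0723 in NC. Rescaling each library to TPM moved the median difference of H against NC over all tested genes to 0.15 on the log2 scale and the share of higher calls to 76.8%, against -0.04 and 64.1% without rescaling. Myoblast markers summed to 756 to 780 FPKM in HL, 401 to 542 FPKM in H and 557 to 567 FPKM in NC. Des was the most abundant of them. Myod1 and Des were detected in every library, while Pax7 stayed below 1 FPKM in all. The markers did not move together. In H against NC, 2 of the 9 tested were higher and 5 lower at an adjusted p under 0.05 by limma. Of all tested genes, 27.1% were higher and 33.0% lower. Myf5 and Itga7 rose by 0.62 and 0.47 on the log2 scale, and Myod1 had a log2 fold change of -1.29. Markers of differentiated muscle summed to 36.8 to 42.0 FPKM in HL, 14.3 to 17.2 FPKM in H and 18.0 to 23.7 FPKM in NC. Of 10 macrophage markers 7 were below 1 FPKM in all libraries and C1qa was at 0. The 10 summed to 50.2 to 53.1 FPKM in HL, 171 to 248 FPKM in H and 33.2 to 34.8 FPKM in NC. Csf1r, at 0.249 to 0.282 FPKM in HL, 91.5 to 149 FPKM in H and 0.311 to 0.686 FPKM in NC, made up most of the sum in H. The 3 tested markers, Csf1r, Cd14 and Cd68, were all called higher in H than in NC, against 10.3% of all tested genes. Csf1r passed the filter only through its H libraries. Mean Cd14 was 30.6 FPKM in HL, 70.6 FPKM in H and 27.6 FPKM in NC. Mean Cd68 was 19.0 FPKM in HL, 17.6 FPKM in H and 4.775 FPKM in NC. The part of these differences in the values of the 10 genes was not tested.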

How the data were processed

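Poly(A)-enriched RNA of 9 C2C12 libraries (HL, H and NC, 3 each) was sequenced on an Illumina HiSeq. The authors trimmed the reads with fastp and, per the submitters' processing notes, aligned them with HISAT2 (version 2.1.0) and quantified them with StringTie (version 1.3.3b), and they deposited FPKM per gene. The deposited table's name points to salmon instead, the labels name mm39 and the methods a human genome, while the identifiers come from mouse Ensembl, and the quantifier and the build of the deposited FPKM are uncertain. FPKM are scaled to mapped fragments and gene length, are not counts, and were not tested as counts.

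Identifiers were matched to GENCODE M21 symbols without their version (51482 of 54307 matched, 51447 with another version number). Values were transformed to log2(FPKM + 0.1) and genes that reached 1 FPKM in 3 or more libraries (13674) were fitted with limma (version 3.58.1, trend and robust options, statmod 1.5.0, R 4.3.3) in 1 fit of the 3 groups, without a replicate term. Benjamini-Hochberg adjustment ran over all tested genes within each comparison. A call needed adjusted p < 0.05 together with a log2 fold change beyond 1 in size, the thresholds named in the methods of the study. The code was tested on simulated data. Ratios were compared with exact two-sided permutation tests in SciPy 1.17.1. Depth was estimated from genes with 1 annotated transcript of at least 2000 bases.

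The 10 genes, the related lists and the markers were chosen with earlier results of these data known. Named genes are the 10, the partners in the ratios, per related list up to 5 called genes with the largest log2 fold change in H against NC or HL against H (otherwise the 2 with the highest level), and the 3 most similar profiles per gene. Pcna, Suz12, Eed, Rbbp4, Rbbp7, Tdg, Gadd45b, Gadd45g, Idh1, Tex19.1, Csf1r, C1qa, Cd14, Cd68, Myod1, Myf5, Itga7, Pax7 and Des fall outside this rule and were named after their values were seen. Alternatives were other pseudocounts (1 and 0.01), a filter on a mean FPKM of 5, no filter, median centring, TPM, fits of 2 groups, limma without the robust option, a replicate block, no fold threshold and leaving out each library. No protein sequences were used here.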

Additional observations from a re-analysis of the deposited data

How the results depend on the processing

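The calls of Uhrf1, Hells, Ezh2 and Asf1b in H against NC, of Uhrf1 in HL against H and of Asf1b in HL against NC held under every alternative in which they were tested, and H against NC kept 5 called members whichever library was left out. Members called in HL against H numbered 1, with 1 to 3 when single libraries were left out (3 without H replicate 3, which added Hells and Tet1, and 2 without HL replicate 1) and 8 with no fold threshold. In HL against NC they numbered 2, with 1 to 2 when single libraries were left out, 1 with the filter on a mean FPKM of 5 (which removed Tet1), 1 with a pseudocount of 1 and 7 with no fold threshold. Over all tested genes, calls in H against NC numbered 2188, with 1065 under the filter on a mean FPKM of 5, 3760 with no filter and 8224 with no fold threshold. The counts in HL against H were 1283, with 525, 2196 and 6619 under these settings and 821 with a pseudocount of 1, and in HL against NC 1192, with 456, 1885, 6674 and 644. Values near 0 changed sign. Dnmt3b in H against NC gave 0.011 in TPM, and in HL against H -0.252 to 0.071 when single libraries were left out. Dnmt3a in HL against NC gave 0.012 after centring, 0.089 in TPM and -0.095 to 0.071 when single libraries were left out. Of the log2 ratio differences, Dnmt1/Dnmt3b in HL against NC ranged from -0.299 to 0.034, Hells/Dnmt1 in HL against H from -0.062 to 0.232, Tet1/Tet3 in H against NC from -0.026 to 0.372 and Tet2/Tet3 in H against NC from -0.175 to 0.157 when single libraries were left out. The cause was not tested beyond the construction of each setting. Same-numbered libraries did not deviate together (correlations from -0.0366 to 0.0911), so the numbers were not taken as pairs. With the replicate block the members called numbered 5, 1 and 2 and all tested genes called 2196, 1288 and 1180 in H against NC, HL against H and HL against NC. At the estimated depths, 1 fragment on a transcript of 1 kb was worth 0.0483 to 0.0635 FPKM. Levels near 1 FPKM, as for Dnmt3b and Tet1, thus rest on fewer fragments per kb than those of the other members.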

Other observations

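Of the partners of active demethylation, Gadd45a, which is induced by stress and has been linked to demethylation and repair, was measured at 102, 94.6 and 108 FPKM in HL, 63.4, 81.1 and 77.0 FPKM in H and 36.9, 40.3 and 42.6 FPKM in NC. No libraries of different groups overlapped. Gadd45a was the only 1 of the 10 tested genes of that list called in any comparison. It was higher in HL than in NC by 1.34 on the log2 scale (adjusted p = 1.6e-05 by limma), where 6.30% of all tested genes were called higher. Its difference of H from NC was 0.88 (adjusted p = 5.34e-05 by limma). The paralogs Gadd45b and Gadd45g went the other way in HL. Against H their log2 fold changes were -0.80 (adjusted p = 8.13e-05) and -0.71 (adjusted p = 0.000189) by limma. Against NC they were -0.45 (adjusted p = 0.00215) and -0.64 (adjusted p = 0.000364) by limma. Tdg, the glycosylase that removes oxidized methylcytosine made by Tet enzymes, had 14.6, 14.5 and 13.5 FPKM in HL, 9.93, 9.19 and 10.8 FPKM in H and 12.5, 14.7 and 14.9 FPKM in NC, and all its H libraries lay below those of both other groups. Apex1, the repair nuclease that acts after Tdg, had 64.9, 61.4 and 59.7 FPKM in HL, 96.1, 71.4 and 73.3 FPKM in H and 94.8, 99.5 and 99.2 FPKM in NC.

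Germline genes known to be silenced by promoter methylation were low in all 3 groups. Of 14 such genes 0 passed the filter, so no limma test was made, and 13 were below 1 FPKM in every library. Their sum was 1.44 to 1.69 FPKM in HL, 1.13 to 1.50 FPKM in H and 0.792 to 0.975 FPKM in NC. Brdt, a bromodomain protein of the testis and the highest of them, had 1.20, 0.964 and 0.847 FPKM in HL, 0.435, 0.429 and 0.454 FPKM in H and 0.438, 0.587 and 0.473 FPKM in NC, so that all HL libraries lay above the others. Sycp3, a protein of meiotic chromosomes, had 0.292, 0.216 and 0.0873 FPKM in HL, 0.152, 0.232 and 0.438 FPKM in H and 0.0527, 0.105 and 0.159 FPKM in NC. Tex19.1 was instead highest in H, with 0, 0.0316 and 0 FPKM in HL, 0.567, 0.212 and 0.266 FPKM in H and 0 in every NC library. Such levels rest on few fragments. DNA methylation itself was not measured in these libraries.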
